A study of Mus musculus with 15 samples.

Results

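The RNAs described here are 10 long noncoding RNAs and small nucleolar RNA (snoRNA) host genes in cultured adult neural stem cells (aNSCs) of the mouse: Malat1, Neat1, Miat, Gas5, Snhg1, Snhg11, Snhg12, Sox2ot, Pvt1 and Rmst. They were chosen by name, as widely studied transcripts with no known imprinting, and were found by symbol among the 53801 genes of the count table. All 10 had a count in at least 1 of the 15 libraries. Mice aged 2 months on a mixed C57BL6/J and 129sv background gave the subventricular zone tissue, from which aNSCs were grown in suspension. Every culture carried the Rosa26-CreERT2 transgene, driven by a promoter active in most cell types, whose recombinase acts once 4-hydroxytamoxifen (4-OHT) is given, and at least 1 floxed allele of Trrap, a cofactor of histone acetyltransferases. The 3 groups of 5 cultures were Trrap Fl/+ untreated, Trrap Fl/+ with 4-OHT and Trrap Fl/Fl with 4-OHT, with 3 male and 2 female labels in each group. The labels give 5 days of treatment, while the authors describe 3 days with 4-OHT and then 2 days in fresh medium. Both Fl/+ groups were grown from mice 19, 24, 26, 35 and 36, and the Fl/Fl cultures from mice 27, 28, 29, 37 and 39. After 4-OHT, Fl/+ cells keep 1 Trrap allele, so no group here lost Trrap without 4-OHT and none received 4-OHT with both alleles unfloxed. No Fl/Fl culture was left untreated, so earlier differences between the Fl/Fl and Fl/+ mice cannot be told apart from the loss of Trrap.

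Long noncoding RNAs act as RNA or through the act of their transcription. Malat1 and Neat1 are neighbouring nuclear transcripts. Malat1 gathers in nuclear speckles, where splicing factors are stored, and Neat1 is the scaffold around which paraspeckles form. Miat, also called Gomafu, is a nuclear RNA of neural cells that binds splicing factors. Gas5, Snhg1, Snhg11 and Snhg12 are snoRNA host genes: their introns carry snoRNAs, which guide the chemical modification of ribosomal RNA, and the spliced exons left over are often short-lived because translation exposes them to nonsense-mediated decay. Sox2ot surrounds the stem cell factor gene Sox2, Pvt1 lies beside the growth regulator gene Myc, and Rmst is a neural RNA known for its partnership with the Sox2 protein. The libraries were made from poly(A) RNA. Mature Malat1 and the long form of Neat1 end without a poly(A) tail, so their values describe the RNA that was captured.

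The libraries held 25720034 to 32187097 assigned counts, so the floor of 3 counts, taken as the limit for a gene that is not detected, was 0.093 to 0.117 CPM (counts scaled to the same total in each library), for counting error only. Trrap itself had 104 ± 24.2 CPM in Fl/Fl 4-OHT cultures (SD, n = 5), 164 ± 26.4 in Fl/+ 4-OHT and 190 ± 14.3 in Fl/+ untreated cultures, and the first of these ranges overlapped the second. These counts cover the whole gene, so they do not measure the deleted part, and "Trrap deletion" below names the Fl/Fl genotype after 4-OHT. The 8 neural stem cell markers summed to 5728 to 10255 CPM per library. The 6 microglial markers summed to 0.0698 to 0.616 CPM in Fl/+ untreated, 0.079 to 0.507 in Fl/+ 4-OHT and 0.688 to 2.01 CPM in Fl/Fl 4-OHT libraries, mostly P2ry12 and Csf1r, with Aif1, Cx3cr1 and Itgam at 0 to 1 count. The 4 endothelial markers summed to 4.46 to 8.32 CPM over all libraries, mostly Kdr, with Cldn5 at 0 to 1 count. The library labelled Fl/Fl 39 female had 54.0 CPM of the Y-linked gene Ddx3y and 0.313 CPM of Xist, which goes against its label, and the library labelled Fl/+ 4-OHT 36 male had 74.7 CPM of Xist beside its Y-linked transcripts. Results are given without them where that changes a call. The labels name no batches. Each culture came from 1 mouse, so the spread within a group is that between mice.

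The starts of the RNAs that were lower in Fl/Fl cultures are shown first. Neither transcription nor the binding of factors at these starts was measured here, so the sequences are a description. RefSeq windows on build GRCm38.p6, from 250 bases before to 50 bases after an annotated start, were given for 6 of the 10 genes (7 windows, since Gas5 has 2 starts). In the sequences, written 5′ to 3′ along the transcribed strand, capitals mark GC boxes, the site of Sp1 family factors, searched as GGGCGG on both strands (CCGCCC on the other).
Snhg1, chr19:8723237-8723536, + strand: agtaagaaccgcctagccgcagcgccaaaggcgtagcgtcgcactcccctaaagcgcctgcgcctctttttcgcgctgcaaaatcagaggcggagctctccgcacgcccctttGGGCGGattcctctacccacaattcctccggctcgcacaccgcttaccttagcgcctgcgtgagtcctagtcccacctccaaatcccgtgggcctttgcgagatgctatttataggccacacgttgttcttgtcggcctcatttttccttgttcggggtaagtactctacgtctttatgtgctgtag
Gas5, start at 161034601, chr1:161034351-161034650, + strand: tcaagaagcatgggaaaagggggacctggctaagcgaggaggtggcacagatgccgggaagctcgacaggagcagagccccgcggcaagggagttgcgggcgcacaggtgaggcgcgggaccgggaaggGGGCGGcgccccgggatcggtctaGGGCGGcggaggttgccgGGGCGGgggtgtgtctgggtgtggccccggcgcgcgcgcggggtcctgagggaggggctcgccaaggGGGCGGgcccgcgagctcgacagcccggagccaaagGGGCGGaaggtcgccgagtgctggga
Gas5, start at 161035166, chr1:161034916-161035215, + strand: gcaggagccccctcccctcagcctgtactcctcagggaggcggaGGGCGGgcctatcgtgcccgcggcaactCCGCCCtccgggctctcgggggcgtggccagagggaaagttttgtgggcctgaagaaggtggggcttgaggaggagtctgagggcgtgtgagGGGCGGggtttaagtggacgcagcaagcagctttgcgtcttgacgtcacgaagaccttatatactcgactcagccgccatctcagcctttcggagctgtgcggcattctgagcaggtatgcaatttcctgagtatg
Miat, chr5:112228899-112229198, - strand: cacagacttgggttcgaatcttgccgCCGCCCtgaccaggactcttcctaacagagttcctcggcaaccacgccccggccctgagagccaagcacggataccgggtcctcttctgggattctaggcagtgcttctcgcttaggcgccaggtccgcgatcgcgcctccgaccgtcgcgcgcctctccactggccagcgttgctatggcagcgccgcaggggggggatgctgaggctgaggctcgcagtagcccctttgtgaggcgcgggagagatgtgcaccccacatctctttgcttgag
Malat1, chr19:5802623-5802922, - strand: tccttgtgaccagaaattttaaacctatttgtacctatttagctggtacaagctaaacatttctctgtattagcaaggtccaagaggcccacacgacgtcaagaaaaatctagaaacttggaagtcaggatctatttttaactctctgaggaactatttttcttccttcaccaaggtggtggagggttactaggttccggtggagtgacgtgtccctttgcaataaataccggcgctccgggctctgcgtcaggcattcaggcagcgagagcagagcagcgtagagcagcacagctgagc
GC boxes were most frequent at Gas5, with 5 in the window of the first start and 3 in that of the second. Snhg1 and Miat had 1 each, and the windows of Malat1, Snhg11 and Snhg12 had none. Over all 32851 windows of the table, 35.7% held at least 1 GC box and 10.7% held 3 or more. The window of Gas5 at its first start was 73.7% G and C, against a median of 52.7% over all windows and 47.0% for Malat1. None of the 7 windows held the E-box CACGTG, a palindrome that reads the same on both strands and is found in 7.15% of all windows.

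snoRNA host transcripts often start with a run of pyrimidines, as do the messengers of ribosomal proteins. The first 12 bases at the 5 annotated starts of the host genes described here are shown, to compare their opening runs of C and T, which are in capitals.
Gas5, first start: gagctcgacagc
Gas5, second start: CTTTCggagctg
Snhg1: CTCatttttcct
Snhg12: TTTCTCgcttca
Snhg11: actcacgcactc
Runs of at least 4 pyrimidines opened 3 of the 7 windows, at the second start of Gas5 (5 bases), at Snhg12 and at Miat (6 bases each), against 6.86% of all windows. The first start of Gas5 and the start of Snhg11 opened with a purine, and Snhg1 had a run of 3. The minimum of 4 was chosen after the sequences were seen. In the list of other noncoding host genes, 4 of 14 windows opened with such a run, and in that of protein-coding hosts 2 of 10. Annotated starts can be off by a few bases or more, which would change these counts and the windows above. The start of Miat used here is at 112228948, while its gene model on the - strand begins at 112229395.

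The gene models differ widely in size. Malat1 (chr19:5795690-5802672, - strand, GRCm38) and Neat1 (chr19:5824708-5845478, - strand) are each covered by exon from end to end, since the longest transcript of each is unspliced. Miat lies at chr5:112213228-112229395 (- strand), Gas5 at chr1:161034422-161038539 (+ strand) and Snhg1 at chr19:8723475-8726443 (+ strand). Snhg11 lies at chr2:158375638-158386145 (+ strand), where the annotation calls it protein coding, and Snhg12 at chr4:132308623-132311024 (+ strand). Sox2ot spans 578350 bases at chr3:34104270-34682619 (+ strand), with Sox2 inside it on the same strand, and Pvt1 spans 340111 bases at chr15:62037986-62378096 (+ strand), starting 52595 bases from the start of Myc. Rmst lies at chr10:92071037-92165170 (- strand). The models of Gas5, Snhg1, Snhg12 and Snhg11 enclose 10, 8, 5 and 2 annotated snoRNA genes, and none of these 25 small genes had a count in any library. Where annotated genes share a strand, the counting drops reads that fall on both, so 17.8% of the exon bases of Gas5, 20.9% of Snhg1 and 19.6% of Snhg12 could be lost to overlapping models. Antisense gene models overlap Miat over 2260 bases and Rmst over 1955 bases, but had at most 2 counts per library in stranded counting.

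The name "abundant" fitted Malat1 and Gas5 better than the others. Levels are compared between genes as CPM per kilobase of annotated exon. Malat1 stood highest in each group, at 40.4 ± 17.1 CPM per kb in Fl/+ untreated cultures (SD, n = 5), above 95.7% of the 29960 genes ranked, which include genes with only a few counts, and was the 4th most abundant long noncoding RNA by CPM there. Gas5 followed at 29.5 ± 3.73 CPM per kb, and its range overlapped that of Malat1. Snhg1 (11.9 ± 0.652 CPM per kb) lay below both without overlap and above Miat (8.08 ± 2.64 CPM per kb) without overlap. Snhg12, Pvt1 and Sox2ot came next at 6.30, 6.08 and 3.95 CPM per kb, each overlapping its neighbour in the order. Neat1 was low, at 0.632 ± 0.221 CPM per kb over its 20.8 kb of exon, below those RNAs and overlapping Snhg11 at 0.193 ± 0.178. Rmst was at or under the floor in all Fl/+ libraries. The order depends on the length used. Per kilobase of the median annotated transcript, Malat1 and Gas5 stayed the highest in each group, but Miat and Sox2ot moved above Snhg1.

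**Figure D1:**
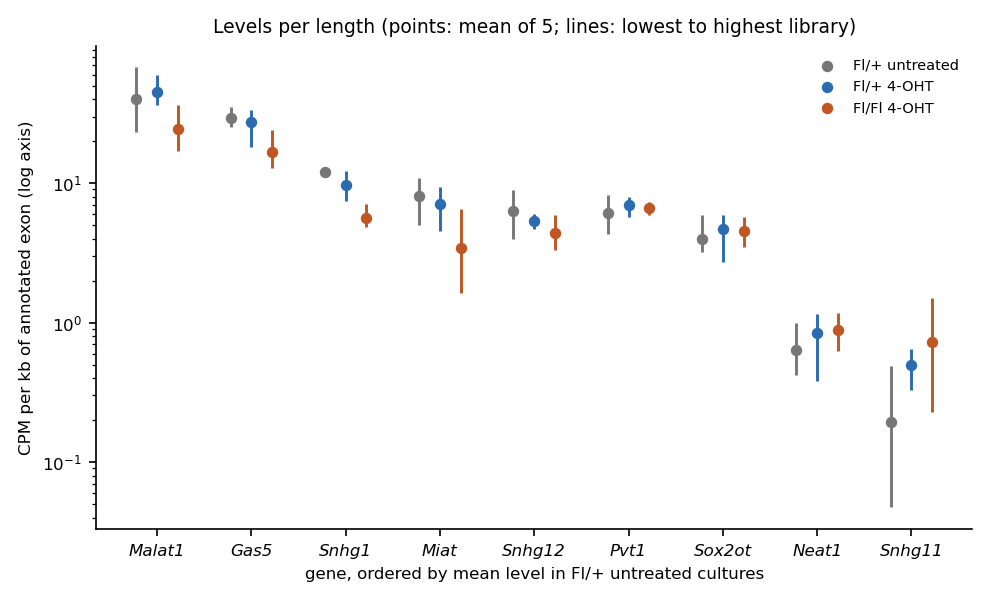
Levels of 9 RNAs as CPM per kilobase of annotated exon (log axis), with the mean of 5 libraries as a point and the lowest to highest library as a line, for Fl/+ untreated (grey), Fl/+ 4-OHT (blue) and Fl/Fl 4-OHT (orange) cultures. Malat1 and Gas5 lie above the rest in each group, and Pvt1 passes Snhg1 and Miat in the Fl/Fl cultures. Rmst is left out because it is at 0 in several libraries.

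For Trrap deletion, Fl/Fl 4-OHT cultures were compared with Fl/+ 4-OHT cultures, which came from other mice. 4 of the 9 RNAs that could be tested were lower, Malat1, Miat, Gas5 and Snhg1, and none was higher. They fell to between 48.1% and 60.9% of the Fl/+ 4-OHT mean. Snhg11, Snhg12, Neat1, Sox2ot and Pvt1 did not pass the test. Over all 15036 genes tested, 31.7% were called, 16.8% higher and 15.0% lower, so 4 of 9 is a larger share than the background in the lower direction, on few genes. The median log2 fold change of the 9 was -0.26, against 0.02 for all genes. In bulk cultures fewer cells of a type and less RNA per cell cannot be told apart. Of the 8 neural stem cell markers 3 were also lower and none higher, Prom1 (-0.65, SE 0.15, adjusted p = 0.00709), Fabp7 (-0.61, SE 0.13, adjusted p = 0.00552) and Sox2 (-0.33, SE 0.10, adjusted p = 0.0268), and their part in the RNA results was not tested.

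Snhg1, a host of C/D snoRNAs, had 20.9, 14.3, 16.7, 16.7 and 15.5 CPM in Fl/Fl 4-OHT cultures from mice 27, 28, 29, 37 and 39, and 30.2, 23.2, 22.2, 31.5 and 36.1 CPM in Fl/+ 4-OHT cultures from mice 19, 24, 26, 35 and 36. All Fl/Fl values lay below all Fl/+ values, the closest being mouse 27 of Fl/Fl and mouse 26 of Fl/+. This gave a log2 fold change of -0.75 (standard error, SE, 0.15, Benjamini-Hochberg adjusted p = 0.00382 in edgeR's quasi-likelihood test). An exact permutation test, two-sided, gave p = 0.00794, the smallest possible with 5 against 5. The call held when each of the 10 libraries was left out in turn, with adjusted p from 0.00223 to 0.0103.

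Malat1 had 156, 187, 251, 139 and 118 CPM in the Fl/Fl cultures (mice 27, 28, 29, 37 and 39) and 277, 315, 254, 415 and 319 CPM in the Fl/+ 4-OHT cultures (mice 19, 24, 26, 35 and 36). The groups did not overlap, but the highest Fl/Fl library, mouse 29, came close to the lowest Fl/+ library, mouse 26. On the log2 scale Malat1 differed by -0.88 (SE 0.20, edgeR adjusted p = 0.00722, exact permutation p = 0.00794). Leaving out single libraries kept the call, with adjusted p up to 0.0194. Snhg1 and Malat1 were the 2 of the 9 RNAs tested whose groups did not overlap. The share of all genes without overlap was not counted, in this or the other comparisons, so this is a description.

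Gas5, whose name comes from its build-up in growth-arrested cells, had 55.8, 48.2, 63.6, 90.2 and 56.4 CPM in the Fl/Fl cultures and 122, 68.5, 79.9, 119 and 126 CPM in the Fl/+ 4-OHT cultures, in the same order of mice. 4 Fl/Fl libraries lay under every Fl/+ library, and mouse 37 lay above 2 of them. Gas5 thus had a log2 fold change of -0.70 (SE 0.20, edgeR adjusted p = 0.0223, exact permutation p = 0.0317). The call was lost without Fl/+ 4-OHT mouse 19, Fl/Fl mouse 27 or Fl/Fl mouse 28, with adjusted p from 0.0511 to 0.0536.

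Miat had the largest fold and the widest spread of the RNAs called. Its Fl/Fl values were 37.2, 27.7, 60.9, 17.6 and 15.1 CPM, and its Fl/+ 4-OHT values 86.4, 42.3, 85.1, 53.3 and 62.0 CPM. Mouse 29 alone among the Fl/Fl cultures reached into the Fl/+ range. Its log2 fold change was -1.03 (SE 0.36, edgeR adjusted p = 0.0468, exact permutation p = 0.0317), and the call was lost in 8 of the 10 fits that left out 1 library, where the adjusted p was 0.0546 to 0.0995 and only the fits without Fl/+ 4-OHT mouse 24 or Fl/Fl mouse 29 kept it. Of 6 markers of neurons, cells in which Miat is known to be expressed, Dcx and Tubb3 were lower (log2 fold changes -2.51 and -1.04), a share near the 31.7% of all genes called. Rbfox3, Map2, Syt1 and Snap25 were not called (edgeR adjusted p = 0.0988 to 0.908). The summed level of the 6 neuron markers was 555 to 806 CPM in Fl/Fl and 815 to 999 CPM in Fl/+ 4-OHT libraries, most of it from Map2, and none of the 6 was at 0. The part of these markers in the Miat result was not tested.

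Within the 2 runs of mouse numbers the 4 RNAs had lower Fl/Fl values in each. In mice 19 to 29 (3 against 3 cultures) the log2 fold changes were -0.52 for Malat1, -0.78 for Miat, -0.70 for Gas5 and -0.55 for Snhg1, and in mice 35 to 39 (2 against 2) they were -1.51, -1.80, -0.73 and -1.06. None was called by edgeR in either subset, where adjusted p ran from 0.0553 to 0.148 and from 0.0677 to 0.133, while 2780 and 0 of all genes were. This split was chosen after the data were seen.

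**Figure D2:**
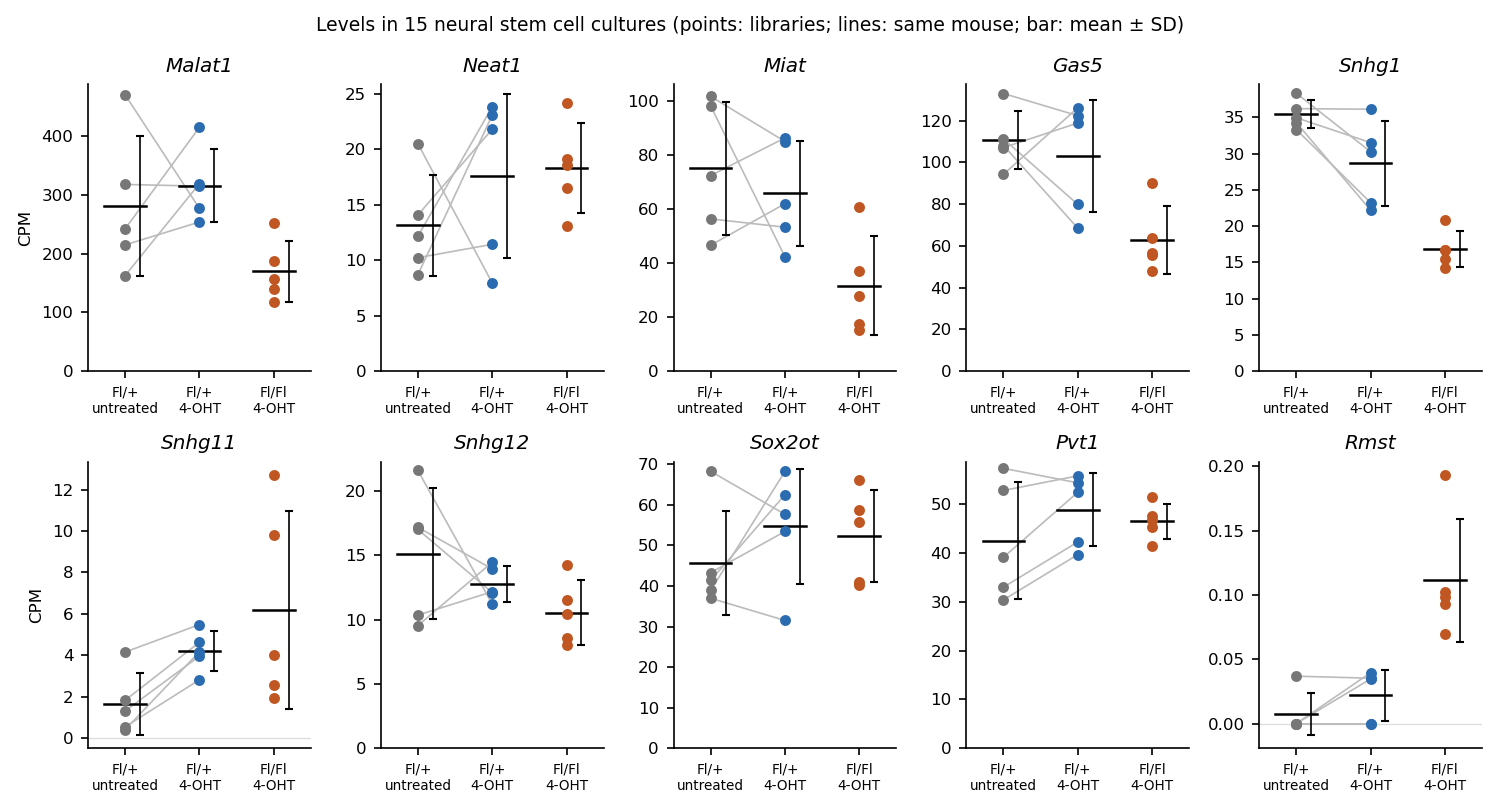
Level of each of the 10 RNAs in the 15 libraries (CPM, linear axes), with points for libraries, grey lines joining the untreated and 4-OHT cultures of 1 Fl/+ mouse, and bars for the mean ± SD of 5. Snhg1 and Malat1 in Fl/Fl 4-OHT cultures lie below every Fl/+ 4-OHT culture, while Pvt1 and Sox2ot overlap across the 3 groups.

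The other host genes did not follow Gas5 and Snhg1 past the threshold. Snhg12, which carries snoRNAs of the H/ACA and C/D classes, ranged from 8.02 to 14.3 CPM in the Fl/Fl group and from 11.2 to 14.5 CPM in Fl/+ 4-OHT cultures, with a log2 fold change of -0.26 (SE 0.16, edgeR adjusted p = 0.236), or -0.41 without Fl/Fl mouse 37 (adjusted p = 0.0527). Snhg11, a host gene known from brain tissue, had 9.79, 4.01, 12.7, 1.93 and 2.54 CPM in the Fl/Fl cultures, and 3.95, 5.48, 4.62, 2.81 and 4.16 CPM in the Fl/+ 4-OHT cultures. The Fl/Fl cultures thus lay on both sides of the Fl/+ range, with mice 27 and 29 above it and mice 37 and 39 below it. Snhg11 was not called (log2 fold change 0.58, SE 0.47, edgeR adjusted p = 0.375), and without single libraries the value ran from 0.12 (Fl/Fl mouse 29 left out) to 0.79 (Fl/Fl mouse 37 left out).

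Neat1, Sox2ot and Pvt1 had fold changes close to 0. Neat1 lay at 13.1 to 24.2 CPM in the Fl/Fl group, and at 7.94 to 23.8 CPM in Fl/+ 4-OHT cultures, a log2 fold change of 0.07 (SE 0.29, adjusted p = 0.873). Sox2ot had 40.1 to 66.0 and 31.5 to 68.2 CPM (-0.05, SE 0.20, adjusted p = 0.880). Pvt1, the steadiest of the set in Fl/Fl cultures with a coefficient of variation of 7.73%, had 41.5 to 51.4 and 39.7 to 55.8 CPM (-0.06, SE 0.10, adjusted p = 0.705). In all 3 the groups overlapped. Leaving out Fl/+ 4-OHT mouse 24 or 26 or Fl/Fl mouse 37 changed the sign of the Neat1 value, and leaving out Fl/+ 4-OHT mouse 19 or Fl/Fl mouse 28 or 29 that of Sox2ot.

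Rmst was too low to be tested after the filter on low counts. It had 3, 3, 3, 5 and 2 counts in the Fl/Fl libraries (mice 27, 28, 29, 37 and 39), 0 to 1 counts in each Fl/+ 4-OHT library and 0 to 1 in each Fl/+ untreated library, or 16, 3 and 1 counts over the groups. The Fl/Fl counts were all higher than the Fl/+ counts, but all except that of mouse 37 were at or under the floor of 3 counts. With no filter on low counts edgeR called it higher (adjusted p = 0.0481), and the exact permutation p was 0.00794. No fold is given at such counts, since 2 Fl/+ 4-OHT libraries and 4 Fl/+ untreated libraries had none.

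Some protein-coding neighbours of the RNAs were measured as well. Slc3a2, an amino acid transporter subunit whose start lies 106 bases from that of Snhg1 on the opposite strand, averaged 340 ± 77.2 CPM in the Fl/Fl group and 286 ± 28.9 CPM in Fl/+ 4-OHT cultures (SD, n = 5). It was not called (log2 fold change 0.26, SE 0.14, edgeR adjusted p = 0.181), while Snhg1 was lower. Zbtb37, which overlaps the Gas5 span on the opposite strand, was not called either (-0.27, SE 0.14, adjusted p = 0.164). Myc was higher (0.54, SE 0.09, adjusted p = 0.00159) beside Pvt1, which was not called, and Sox2 was lower (-0.33, SE 0.10, adjusted p = 0.0268) inside Sox2ot, which was not called. No difference between neighbours was tested.

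Other snoRNA host genes were counted beside Gas5 and Snhg1. Of 16 further noncoding hosts listed, 14 were in the table and 13 tested, of which 4 were lower and none higher (median log2 fold change -0.36). That share of calls is near the 31.7% over all genes, of which 15.0% were lower. The 3 largest falls were those of Snhg5 (-0.89, SE 0.14, adjusted p = 0.00102), Zfas1 (-0.65, SE 0.12, adjusted p = 0.00275) and Snhg16 (-0.61, SE 0.15, adjusted p = 0.0120). Of 15 protein-coding hosts, 9 were lower and none higher, with a median of -0.49. Among them were Eif4a1, an RNA helicase of translation initiation (-0.90, SE 0.06), and Nop56, a core protein of C/D snoRNA particles (-0.67, SE 0.11). The groups did not overlap for either gene (edgeR adjusted p = 2.71e-05 and 0.00101). The lists were drawn up with earlier results of these libraries known, so their counts are a description.

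**Figure D3:**
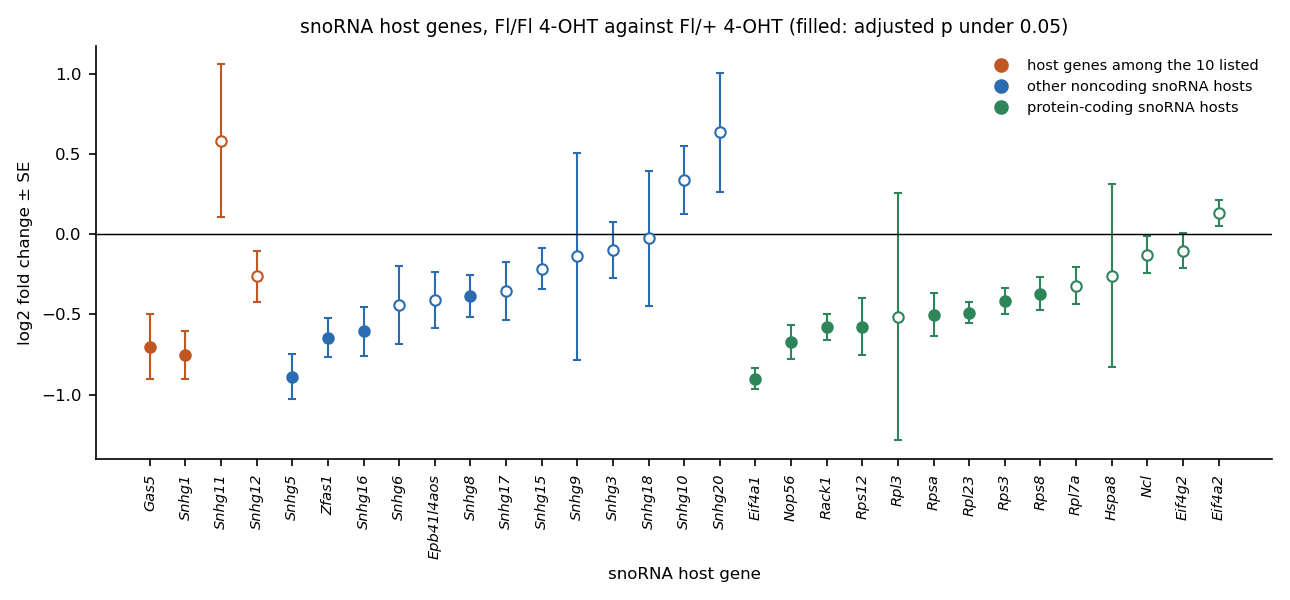
Log2 fold change ± SE of snoRNA host genes in Fl/Fl 4-OHT against Fl/+ 4-OHT cultures, for the host genes described here (orange), other noncoding hosts (blue) and protein-coding hosts (green), with filled points for an adjusted p under 0.05. Filled points all lie below 0, among them 2 of the 4 hosts described here and 4 of the 13 other noncoding hosts, and Snhg11, Snhg10, Snhg20 and Eif4a2 lie above 0 with open points.

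The partners of these RNAs were counted in the same way, against the same 31.7% of all genes called (16.8% higher, 15.0% lower). Of 18 proteins of snoRNA particles and their assembly, 9 were lower and 1 higher, with a median of -0.21 (log2). The one higher was the H/ACA assembly factor Naf1 (0.33, SE 0.07), named after its value was seen. Of 12 paraspeckle proteins, 6 were lower and none higher, with a median of -0.36, while Neat1 was not called. Among them were Nono (-0.66, SE 0.08, adjusted p = 0.00031) and Sfpq (-0.52, SE 0.11, adjusted p = 0.00489), which bind Neat1 directly. Of 12 nuclear speckle proteins 4 were lower, led by the splicing factor Srsf3 (-0.64, SE 0.13, adjusted p = 0.00422), and of 10 factors of nonsense-mediated decay 2 were higher, led by Upf3a (0.63, SE 0.07, adjusted p = 0.000192), and 1 was lower, Smg1. For both of these lists the share called is near that over all genes. The count for nuclear speckle proteins dropped to 1 without Fl/+ 4-OHT mouse 19, Fl/+ 4-OHT mouse 36 or Fl/Fl mouse 28. Of 19 other long noncoding RNAs, 15 were tested and 6 were lower, with none higher. The largest falls were those of Mir17hg, host of the miR-17 cluster (-1.91, SE 0.38, adjusted p = 0.00382), Mir124a-1hg (-1.71, SE 0.53, adjusted p = 0.0293) and Dleu2 (-0.85, SE 0.20, adjusted p = 0.00822). Mir17hg was low, at 0.116 to 0.393 CPM in Fl/Fl and 0.633 to 1.69 CPM in Fl/+ 4-OHT libraries, the lowest near the floor. Mir124a-1hg had 0.278 to 1.77 and 1.46 to 4.78 CPM, and its groups overlapped.

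The treated and untreated cultures of the same 5 Fl/+ mice were compared to give the background of the treatment. Since treated Fl/+ cells lose their floxed allele, 4-OHT and the loss of 1 Trrap allele cannot be told apart here, and "4-OHT" names both. None of the 9 RNAs tested was called by edgeR, against 13.8% of 14821 genes (7.34% higher and 6.45% lower). 2 of the 9, Snhg1 and Snhg11, had an unadjusted p under 0.05, and DESeq2 called 1. The median log2 fold change of the 9 was 0.17. This comparison and the previous one share the Fl/+ 4-OHT libraries, so their values are not independent. Mitochondrial counts moved with this comparison, at 1.72% to 3.56% of counts in untreated and 0.849% to 1.74% in 4-OHT libraries, lower after treatment in mice 24, 26, 35 and 36 but not in mouse 19. In Fl/Fl 4-OHT libraries the share was 1.36% to 2.19%. Its part in the RNA values was not tested.

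Snhg11 was the RNA that moved most. It had 1.30, 4.15, 1.82, 0.539 and 0.405 CPM in untreated cultures of mice 19, 24, 26, 35 and 36, and 3.95, 5.48, 4.62, 2.81 and 4.16 CPM in their 4-OHT cultures. It was higher after 4-OHT in 5 of 5 mice, by 0.36 to 2.36 on the log2(CPM + 0.5) scale. Its log2 fold change of 1.35 was not called (SE 0.52, edgeR adjusted p = 0.109), and the exact sign-flip permutation p was 0.0625, the smallest that 5 mice allow. The fit with the mouse as a replicate block called it higher (1.68, adjusted p = 0.0137). Without untreated mouse 24, its highest untreated culture, the unblocked fit called it too (2.04, adjusted p = 0.0125). Oligodendrocyte markers moved with it, 6 of 8 higher, at a summed 974 to 1226 CPM in untreated and 1235 to 1729 CPM in 4-OHT libraries. Most of the untreated sum was Olig2, which was not called, and Mog, a marker of mature oligodendrocytes, had 0 to 0.07 CPM before and 0.395 to 1.93 CPM after treatment. Among astrocyte markers Gfap was higher (3.25) and S100b lower (-1.91). The part of these markers in the Snhg11 values was not tested.

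Snhg1 had lower values after 4-OHT in each of the 5 mice, going from 38.3, 33.3, 34.3, 34.9 and 36.2 CPM to 30.2, 23.2, 22.2, 31.5 and 36.1 CPM. The untreated cultures were the tightest group of any member, with a coefficient of variation of 5.47%, and the fall in mouse 36 was close to 0. Snhg1 was not called (log2 fold change -0.30, SE 0.13, edgeR adjusted p = 0.161, exact sign-flip permutation p = 0.0625), nor was it with the replicate block (-0.32, adjusted p = 0.0542). With labelled sex as a covariate it was called lower (-0.32, adjusted p = 0.0420). Its divergent neighbour Slc3a2 was called lower (-0.55, SE 0.12, adjusted p = 0.0147). Of the 13 other noncoding snoRNA hosts tested 1 was called, Zfas1, which was lower (-0.57, SE 0.15, adjusted p = 0.0266). Of the 15 protein-coding hosts 0 were called, against 13.8% of all genes.

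The other members split by mouse. Malat1 went from 471, 318, 215, 242 and 163 CPM to 277, 315, 254, 415 and 319 CPM, lower in mice 19 and 24 and higher in the other 3. Gas5 and Snhg12 were lower in mice 19, 24 and 26 and higher in mice 35 and 36. Neat1 was higher in 4 of 5 mice and lower in mouse 26, by 1.31 on the log2(CPM + 0.5) scale. Sox2ot was higher in 3 of 5, Pvt1 in 4 of 5 and Miat in 2 of 5. None of these 7 RNAs was called, with adjusted p from 0.418 to 0.740.

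**Figure D4:**
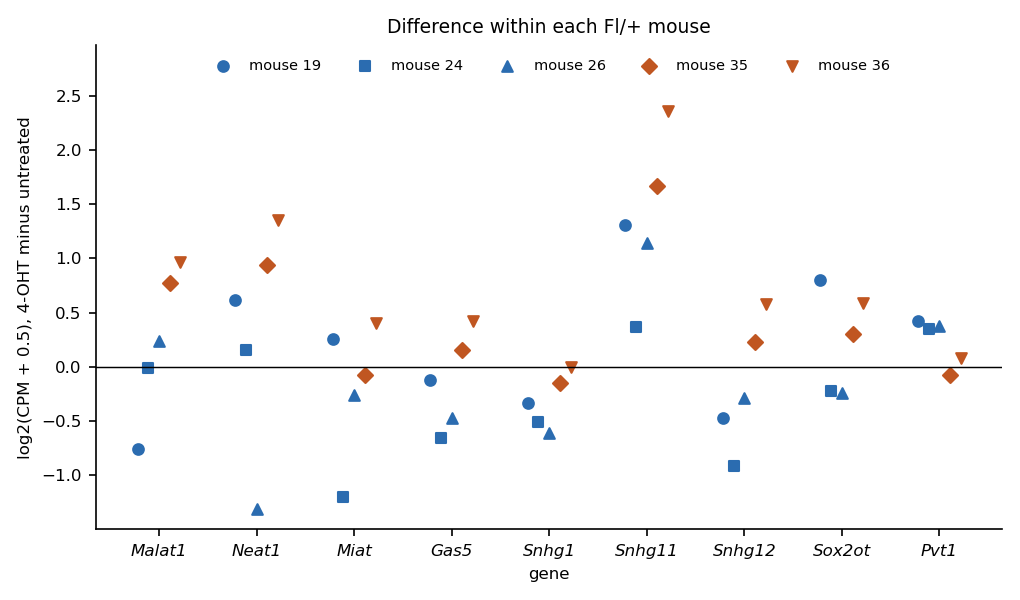
Difference in log2(CPM + 0.5) between the 4-OHT and the untreated culture of each Fl/+ mouse for 9 RNAs, with mice 19, 24 and 26 in blue and mice 35 and 36 in orange. Snhg11 lies above 0 and Snhg1 at or below 0 in all 5 mice, and 6 of the 9 RNAs (Malat1, Neat1, Gas5, Snhg1, Snhg11 and Snhg12) lie higher in mice 35 and 36 than in the other 3.

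The comparison of Fl/Fl 4-OHT with Fl/+ untreated cultures combines both changes. 3 of the 9 RNAs tested were lower and none higher, against 30.7% of 15032 genes called (15.7% higher and 15.1% lower), with a median log2 fold change of -0.51. Snhg1, at 14.3 to 20.9 against 33.3 to 38.3 CPM, had a log2 fold change of -1.06 (SE 0.11, edgeR adjusted p = 0.000124), and Gas5, at 48.2 to 90.2 against 94.3 to 133 CPM, of -0.80 (SE 0.16, adjusted p = 0.00342). Neither overlapped between the groups, and both calls held without any single library. Miat, at 15.1 to 60.9 against 46.6 to 102 CPM, had -1.23 (SE 0.37, adjusted p = 0.0266), a call lost in 5 of 10 fits without 1 library, namely Fl/+ untreated mouse 24 or 26 and Fl/Fl mouse 28, 37 or 39, where the adjusted p was 0.0507 to 0.0599. Cell type markers moved in this comparison too. Of the 6 neuron markers 5 were lower and none higher (summed 555 to 806 against 832 to 1101 CPM), with Dcx at -2.34, Rbfox3 at -1.69 and Tubb3 at -1.40, and of the 8 oligodendrocyte markers 6 were higher and none lower (1130 to 2928 against 974 to 1226 CPM), with Mog at 6.30, Mag at 5.29 and Mbp at 4.18. Their part in the RNA values was not tested.

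Malat1 was not called here, at 118 to 251 against 163 to 471 CPM (-0.71, SE 0.28, adjusted p = 0.0764). Its untreated cultures spread widely, and without untreated mouse 36 or Fl/Fl mouse 29 it was called (adjusted p = 0.0306 and 0.0390), while without untreated mouse 19, the highest, the value was -0.45 (adjusted p = 0.192). On all libraries it was called lower by DESeq2 (adjusted p = 0.0428), in 1 fit to all 15 libraries (0.0406) and with mouse number series as a covariate (0.0238). Snhg11 had 1.93 to 12.7 against 0.405 to 4.15 CPM (1.93, SE 0.69, adjusted p = 0.0532) and was called higher without untreated mouse 24, Fl/Fl mouse 37 or Fl/Fl mouse 39 (2.61, 2.15 and 2.13). It was also called higher in 7 other alternative fits, among them DESeq2 (1.92, adjusted p = 0.0358) and mouse number series as a covariate (2.00, adjusted p = 0.00294). Snhg12 (-0.51), Neat1 (0.49), Sox2ot (0.21) and Pvt1 (0.14) were not called, although Neat1 was without untreated mouse 26 (0.71, adjusted p = 0.0256). Snhg12 and Pvt1 were each called in 1 alternative fit (lowest adjusted p over all fits 0.00726 and 0.0407). Their largest values, -0.87 and 0.40, were those of mice 19 to 29, a subset chosen after the data were seen.

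**Figure D5:**
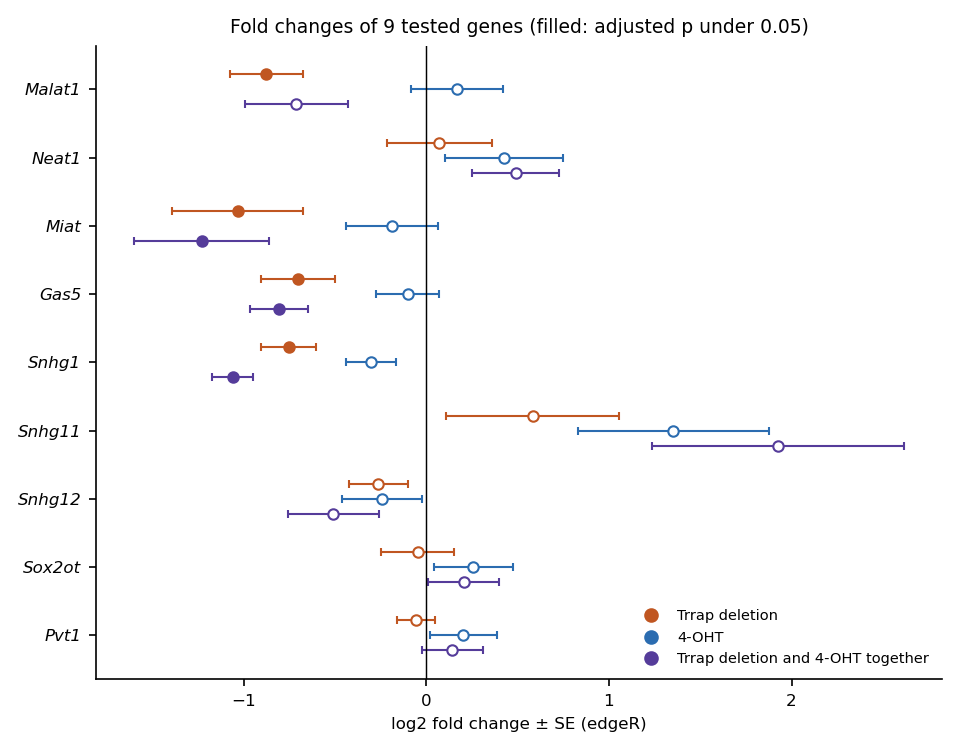
Log2 fold changes ± SE of the 9 tested RNAs for Trrap deletion (orange), 4-OHT (blue) and both together (purple), with filled points for an adjusted p under 0.05. Filled points are those of Malat1, Miat, Gas5 and Snhg1, all below 0, and Snhg11 has the widest error bars.

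Some of the RNAs varied together within groups and many did not. After the group means were removed, Pearson r over 15 libraries ran from -0.60 (Snhg11 and Pvt1) to 0.81 (Miat and Snhg11), and 17 of the 36 pairs lay between -0.3 and 0.3. Among the snoRNA hosts, Gas5 and Snhg1 had an r of 0.63, Snhg1 and Snhg12 of -0.05, and Snhg1 and Snhg11 of 0.03. The neighbours Malat1 and Neat1 had an r of 0.22. These are descriptions over 15 libraries, 10 of which come from 5 shared mice. In a search of 13332 genes averaging 1 CPM or more, the closest pattern to Malat1 over all 15 libraries was that of Kcnq1ot1, another long nuclear RNA (r = 0.93), and the closest to Snhg1 were Psmc6, Top2b and Wtap (r = 0.96, 0.95 and 0.95). The closest to Gas5 were Uchl1, Atf4 and Rars (r = 0.91, 0.89 and 0.89), and to Miat the neuronal kinase gene Brsk2, Msantd2 and Carmil3 (r = 0.95, 0.94 and 0.94). For Pvt1 they were Farsb, Abcc4 and Akap11 (r = 0.92, 0.91 and 0.90), while the highest r for Neat1 was 0.83 (Sh2d5) and for Sox2ot 0.79 (Bag5). These r from the search include the differences between groups and are the highest among 13332 genes. With group means removed they were 0.73 for Snhg1 with Top2b or Wtap, 0.77 to 0.79 for Gas5 and 0.91 for Malat1 with Kcnq1ot1.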

How the data were processed

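Stranded single-end libraries of poly(A) RNA were sequenced from 15 aNSC cultures. The deposited values are raw counts of uniquely mapped reads per Ensembl gene, which the authors made with STAR 2.5.4b on GRCm38 and featureCounts 1.5.0 in stranded mode (bcl2fastq 1.8.4 for base calls). Reads shared between overlapping genes are dropped by such counting, which lowers host genes that enclose annotated snoRNAs. The 4-OHT dose is not given here because the sources differ. Names came from GENCODE vM21, which matched 53620 of 53801 genes and left 181 unnamed, and promoter windows from RefSeq on GRCm38.p6.

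Each comparison was fitted to its own 10 libraries with edgeR 4.0.16 in R 4.3.3 (filterByExpr with a minimum count of 10, TMM factors, quasi-likelihood test), with Benjamini-Hochberg adjustment over all genes tested and a threshold of 0.05. CPM were computed from the counts and library totals scaled by TMM factors over all 15 libraries, while the floor used unscaled totals. Single genes were also tested by exact two-sided permutation of log2(CPM + 0.5), over 252 arrangements or, within mice, 32 sign flips. Python 3.11.15, numpy 2.4.6 and pandas 2.3.3 made the tables, and the fit was tested on simulated counts. DESeq2 1.42.0, other scalings, filters and covariates, and leaving out each library were alternatives. The untreated and treated Fl/+ cultures share 5 mice. Deviations from group means correlated at 0.153 to 0.634 within a mouse and -0.559 to 0.350 between mice over 14821 genes, so an alternative fit took the mouse as its replicate block. The 10 RNAs and the gene lists were chosen with earlier results of these data known. Named from a list were at most the 3 genes with the largest called change, beside all 10 RNAs, Trrap, neighbouring genes and the 3 genes most similar to each RNA. Naf1, and cell type markers that were not called or not tested, were named outside this rule, after their values were seen. Some genes that this rule picks are not reported here, and 1 protein-coding host is not drawn.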

Additional observations from a re-analysis of the deposited data

Results flagged for a closer look

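Among 28 groups of 5 libraries tested for a single library far from the others, 2 stood out, and chance flags about 1 in 20 groups. Sox2ot had 68.2 CPM in the Fl/+ untreated culture of mouse 26, where the next highest untreated culture had 43.3 CPM. The Fl/+ 4-OHT culture of the same mouse had 57.6 CPM, inside its group. Rmst had 0.193 CPM in the Fl/Fl 4-OHT culture of mouse 37, from 5 counts, and the next highest had 0.102 CPM, so the gap is one of 2 counts.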

How the results depend on the processing

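Settings other than single-library removals left 4 members called for Trrap deletion except library size alone (3), no low-count filter (5, with Rmst), and the subsets chosen after the data were seen, mice 19 to 29 (0) and mice 35 to 39 (0, where none of all genes was called). For 4-OHT the count of 0 became 1 with DESeq2, with mouse number series and with the replicate block (Snhg11), and 2 with labelled sex (Snhg1 and Snhg11) or in mice 35 to 39 (Neat1 and Snhg11). With the replicate block 3809 of all genes were called against 2044, with mouse number series 3170, and in the subsets 1242 and 1063. For both changes together the count of 3 became 4 with library size alone or at least 10 counts in every library (Snhg11 higher), 5 with DESeq2, no low-count filter, 1 fit to all 15 libraries or mouse number series, 6 in mice 19 to 29 and 0 in mice 35 to 39 (3 of all genes called). Leaving out 1 library gave 2 to 4, 0 to 1 and 2 to 4 members called in the 3 comparisons. For the other lists in Trrap deletion, counted after the data were seen, mice 35 to 39 gave 0 throughout. Mice 19 to 29 gave 2 other snoRNA hosts, 4 snoRNA particle proteins, 1 decay factor and 0 nuclear speckle proteins, and library size alone 1 nuclear speckle protein. Nuclear speckle calls without 1 library ran from 1 to 6.

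Of the single-gene values under the alternatives, 479 kept direction and call, 28 lost the call, 26 gained one and 16 turned direction. For Trrap deletion without 1 library, Neat1 ran from -0.12 to 0.19 and Sox2ot from -0.21 to 0.033, and in mice 35 to 39 Neat1 was -0.19 and Snhg11 -0.63. For 4-OHT, Gas5 ran from -0.17 to 0.031 without 1 library. Mice 19 to 29 gave -0.24 for Malat1 and -0.12 for Neat1, and mice 35 to 39 gave 1.19 for Neat1 (called, adjusted p = 0.0310), 0.18 for Miat, 0.30 for Gas5 and 0.44 for Snhg12. Together, mice 35 to 39 gave 0.18 for Snhg12 and -0.15 for Pvt1. The cause of these changes was not tested. Depth limits Rmst, at 0 to 5 counts per library.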
